A study of Mus musculus with 4 samples.

Results

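The genes described here are CDK inhibitors and genes of the p53 and Rb pathways, which act as a barrier to reprogramming. They are Cdkn1a, Cdkn1b, Cdkn2a, Cdkn2b, Cdkn2c, Cdkn2d, Trp53, Mdm2, Rb1 and Ccng1, of which Mdm2 acts against p53. They were taken by name from a list of 10 genes, of which 9 had a named probe set among the 23185 named genes on the arrays, and Trp53 was not analysed here. Expression was measured in 4 mouse cell populations with 1 Affymetrix array each. The iPS cells are induced pluripotent stem cells made from club cells, the secretory cells of the airway lining. The Day0 cells are club cells of adult lung that were not cultured. The 3w+Dox cells are club cells kept for 3 weeks in medium with doxycycline, and are named Club-iPL in the labels. The 3w+Dox+2w-Dox cells, called withdrawn cells here, had then spent 2 weeks in medium without the drug. Doxycycline is commonly used to switch on an inducible transgene, and the series title names interrupted reprogramming. The labels give neither the transgenes and their promoter, nor the strain, nor the number of animals or clones behind an array.

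Cyclin-dependent kinases drive a cell through its division cycle, in part by phosphorylating the retinoblastoma protein, which otherwise holds E2F transcription factors inactive. INK4 proteins bind CDK4 and CDK6, while CIP/KIP proteins bind a wider range of cyclin-CDK complexes. The transcription factor p53 responds to DNA damage and oncogenic stress, and switches on Cdkn1a, Mdm2 and Ccng1 among many others. In mouse fibroblasts the Cdkn2a locus, p53 and p21 are known to lower the yield of iPS cells.

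Signals are log2 values from RMA, and a difference of 1 log2 unit is 2-fold. A gene passes the 2-fold or the 4-fold rule when its signals differ by that much or more and the brighter one reaches 6.67, the median over the whole table. With 1 array per population there is no spread between replicates, so no difference below has a test or a p-value. Where genes that passed a rule are counted, the percent of all 23185 named genes that met the same rule is given for that comparison.

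The starts of the 4 genes that were apart by the 2-fold rule between 3w+Dox and Day0 are printed here. Cdkn2c, which was apart in iPS cells, is not among them. The sequences are RefSeq windows of GRCm38.p6, 250 bases before to 50 bases after a start, read 5′ to 3′ on the strand of the gene. Of the 9 genes, 8 matched 11 windows, and Rb1 matched none. Capitals mark GC boxes (GGGCGG), an E2F motif (TTTCCCGC) and p53 half-sites, found on either strand.

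The windows read as follows.
Cdkn1a, upstream start, chr17:29090729-29091028 (+ strand): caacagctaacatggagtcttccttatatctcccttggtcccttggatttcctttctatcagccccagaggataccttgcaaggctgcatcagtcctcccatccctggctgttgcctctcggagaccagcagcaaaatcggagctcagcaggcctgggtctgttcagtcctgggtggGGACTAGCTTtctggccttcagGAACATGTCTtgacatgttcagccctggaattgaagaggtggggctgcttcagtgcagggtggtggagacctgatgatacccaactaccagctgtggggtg
Cdkn1a, downstream start, chr17:29093519-29093818 (+ strand): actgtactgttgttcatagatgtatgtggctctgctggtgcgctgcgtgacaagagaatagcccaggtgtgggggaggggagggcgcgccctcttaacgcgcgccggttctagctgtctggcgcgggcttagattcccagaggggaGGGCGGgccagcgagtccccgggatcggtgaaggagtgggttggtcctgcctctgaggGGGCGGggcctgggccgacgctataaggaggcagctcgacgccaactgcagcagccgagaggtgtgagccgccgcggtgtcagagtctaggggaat
Cdkn2a, upstream start, chr4:89294570-89294869 (- strand): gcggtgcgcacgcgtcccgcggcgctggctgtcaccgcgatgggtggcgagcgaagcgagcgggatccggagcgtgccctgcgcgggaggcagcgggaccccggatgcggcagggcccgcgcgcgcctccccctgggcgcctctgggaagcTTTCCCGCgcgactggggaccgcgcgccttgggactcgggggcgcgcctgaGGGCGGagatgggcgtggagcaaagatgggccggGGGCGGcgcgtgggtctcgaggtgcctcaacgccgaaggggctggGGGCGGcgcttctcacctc
Cdkn2a, downstream start, chr4:89282143-89282442 (- strand): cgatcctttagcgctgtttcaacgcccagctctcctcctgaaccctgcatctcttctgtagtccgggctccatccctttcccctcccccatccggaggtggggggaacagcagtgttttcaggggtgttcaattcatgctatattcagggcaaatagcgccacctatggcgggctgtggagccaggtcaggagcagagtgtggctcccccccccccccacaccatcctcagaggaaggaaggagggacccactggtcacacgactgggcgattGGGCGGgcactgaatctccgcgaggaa
Cdkn2b, chr4:89310983-89311282 (- strand): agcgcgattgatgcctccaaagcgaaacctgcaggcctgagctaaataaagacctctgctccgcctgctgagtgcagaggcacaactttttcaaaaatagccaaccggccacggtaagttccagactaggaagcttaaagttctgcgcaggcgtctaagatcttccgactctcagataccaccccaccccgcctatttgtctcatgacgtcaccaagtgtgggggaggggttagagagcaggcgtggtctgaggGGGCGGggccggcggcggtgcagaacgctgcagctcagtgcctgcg
Ccng1, chr11:40755237-40755536 (- strand): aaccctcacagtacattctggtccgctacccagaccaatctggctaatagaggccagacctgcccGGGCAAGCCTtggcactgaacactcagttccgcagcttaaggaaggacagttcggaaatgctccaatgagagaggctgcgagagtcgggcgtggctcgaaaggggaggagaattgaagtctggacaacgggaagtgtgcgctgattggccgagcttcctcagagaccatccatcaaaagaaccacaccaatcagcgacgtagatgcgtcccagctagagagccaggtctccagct

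The upstream window of Cdkn1a, which encodes p21, held 2 p53 half-sites, at -73 and -51 from the start, where -1 is the last base before it. The stretch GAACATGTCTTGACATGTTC, which begins at -51, fitted a pair of half-sites without a spacer at 19 of 20 positions. Runs at least as close were found in 0.0891% of 32544 mouse promoter windows. This start lies 2790 bases before the downstream one, whose window held 2 GC boxes and no half-site. A p53 half-site was also found in the windows of Ccng1, at -185, Mdm2, at -186, and Cdkn2d, at -102, where it overlaps a GC box. At least 1 half-site stood in 8.36% of all windows.

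Cdkn2a encodes p16 and Arf from alternative first exons, with the Arf exon at the upstream start. The upstream window was 77.0% G and C with 45 CpG dinucleotides, 3 GC boxes and an E2F motif at -99. The downstream window was 60.3% G and C with 12 CpG dinucleotides and 1 GC box, which overlaps a CCAAT box. The Cdkn2b window held 1 GC box, at 5. Across all windows the median number of CpG dinucleotides was 7. A GC box stood in 35.9% of windows, this E2F motif in 1.08% and a CCAAT box in 37.4%. The E-box CACGTG was searched too and stood in 7.17% of windows. A TATA box, read as TATAAA, stood in 13.6% of windows and in none of the 11 member windows. A match is a run of letters and shows no binding.

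The populations carried markers of several cell types. At Day0 all 6 club cell, all 6 ciliated cell and all 6 alveolar type 2 cell markers reached 6.67. At 3w+Dox 3 of 6 club cell and 1 of 6 ciliated cell markers did so, and in withdrawn cells 5 of 6 and 6 of 6. All 6 alveolar type 2 cell markers and all 5 epithelial markers did so in both cultures. In iPS cells 7 of 8 pluripotency markers did so, with Dppa5a at 5.30, against 0 of 8 on each other array. Fibroblast markers ran between 8.06 and 12.84 at 3w+Dox, against 4.15 to 6.73 at Day0. In withdrawn cells they ran between 8.27 and 12.53, and in iPS cells between 6.68 and 10.06. Leukocyte markers had a median of 6.81 in iPS cells, 10.01 at 3w+Dox and 10.50 in withdrawn cells, against 6.39 at Day0. In each population a change in RNA per cell and a change in the share of a cell type cannot be told apart.

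**Figure D1:**
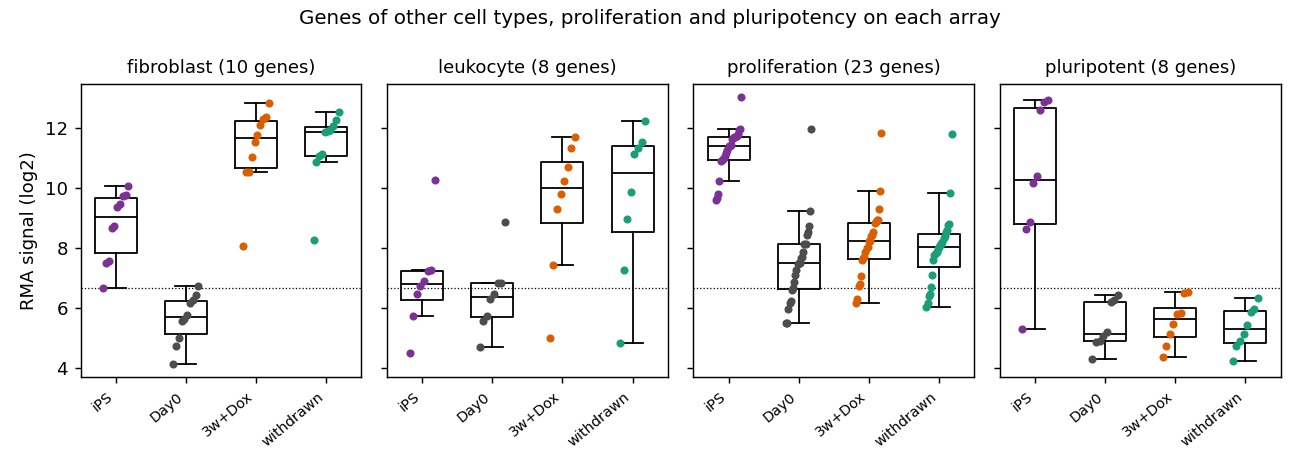
RMA signals (log2, vertical axis) of fibroblast, leukocyte, proliferation and pluripotency genes in iPS cells, Day0, 3w+Dox and withdrawn cells. Each point is a gene, boxes span the quartiles with the median as a line and whiskers reach the furthest gene within 1.5 times the box height, and the dotted line is the median of all values. All 10 fibroblast genes lie higher at 3w+Dox and in withdrawn cells than at Day0, and all 23 proliferation genes are brightest in iPS cells.

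The comparison of 3w+Dox with Day0 cells asks whether these genes differed after 3 weeks with doxycycline. Cdkn2b and Cdkn1a were higher by the 4-fold rule, and Cdkn2a and Ccng1 by the 2-fold rule. Thus 4 of 9 genes passed 2-fold upward, where 8.67% of all named genes did, and 0 of 9 passed it downward, where 7.52% did. At 4-fold the count was 2 of 9 upward, beside 4.31% of named genes. The median difference of the 9 genes was 0.63, and that of all named genes was -0.09.

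Among the INK4 genes the members did not move alike. Cdkn2b, which encodes p15, an inhibitor of CDK4 and CDK6 that responds to TGF-beta, read 8.24 in iPS cells, and 7.53 at Day0, 10.34 at 3w+Dox and 10.51 in withdrawn cells. Both club cell cultures stood well above Day0 and above iPS cells. The difference of 3w+Dox from Day0 was 2.81, or 7.01-fold, the 587th largest increase of the 23185 named genes. Cdkn2a, read by 1 probe set that cannot separate p16 from Arf, gave 7.12 in iPS cells, and 6.85 at Day0, 8.11 at 3w+Dox and 8.57 in withdrawn cells. Cdkn2a was thus 2.40-fold above Day0 at 3w+Dox, and 13.7% of named genes were at least as far apart. Its Day0 signal was close to the median of all values.

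Cdkn2c and Cdkn2d, the remaining INK4 genes, were within 2-fold of Day0 at 3w+Dox. Cdkn2c, which encodes p18, read 6.46 in iPS cells, and 8.88 at Day0, 8.51 at 3w+Dox and 8.92 in withdrawn cells. It is the one INK4 gene with its low signal in iPS cells. Cdkn2d, which encodes p19Ink4d, read 7.01 in iPS cells, and 6.75 at Day0, 6.97 at 3w+Dox and 7.04 in withdrawn cells. Its range over the 4 arrays was 0.28, and 88.9% of named genes had a range at least as wide. Cdkn2d was also close to the median of all values on every array, brighter than 50.5% of named genes at Day0 and 53.2% in iPS cells.

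Of the CIP/KIP members, Cdkn1a passed the 4-fold rule and Cdkn1b passed neither. Cdkn1a read 12.60 in iPS cells, and 11.09 at Day0, 13.33 at 3w+Dox and 13.36 in withdrawn cells. It was already brighter than 95.8% of named genes at Day0 and brighter than 99.9% at 3w+Dox. The brightest value on any of the 4 arrays was 13.85. The difference of 3w+Dox from Day0 was 2.24, or 4.74-fold. Cdkn1b, which encodes p27, the inhibitor that accumulates in quiescent cells, read 8.61 in iPS cells, and 9.51 at Day0, 9.19 at 3w+Dox and 8.78 in withdrawn cells. It was brightest at Day0, unlike Cdkn1a, but every difference of Cdkn1b was within 2-fold.

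Among the p53 pathway genes, Ccng1, which encodes cyclin G1, read 12.33 in iPS cells, and 11.47 at Day0, 12.58 at 3w+Dox and 12.60 in withdrawn cells. It was lowest at Day0 and 2.16-fold higher at 3w+Dox. Mdm2, the ubiquitin ligase that marks p53 for destruction, read 11.07 in iPS cells, and 10.25 at Day0, 10.88 at 3w+Dox and 11.06 in withdrawn cells. Mdm2 was lowest at Day0 too, and the 3w+Dox signal was 1.54-fold higher, which is under the 2-fold rule. Rb1, which encodes the retinoblastoma protein, read 9.75 in iPS cells, and 9.72 at Day0, 9.69 at 3w+Dox and 9.53 in withdrawn cells. The 4 signals of Rb1 lay within 0.22 of each other, a narrower range than in 94.2% of named genes.

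On the same array all 10 fibroblast markers and 7 of 8 leukocyte markers passed 4-fold upward against Day0, with median differences of 6.04 and 3.30, beside 4.31% and -0.09 for all named genes. Their part in the differences of Cdkn2b, Cdkn1a, Cdkn2a and Ccng1 was not tested. Since no drug-free culture stands beside these arrays, the drug and the time in culture cannot be told apart.

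**Figure D2:**
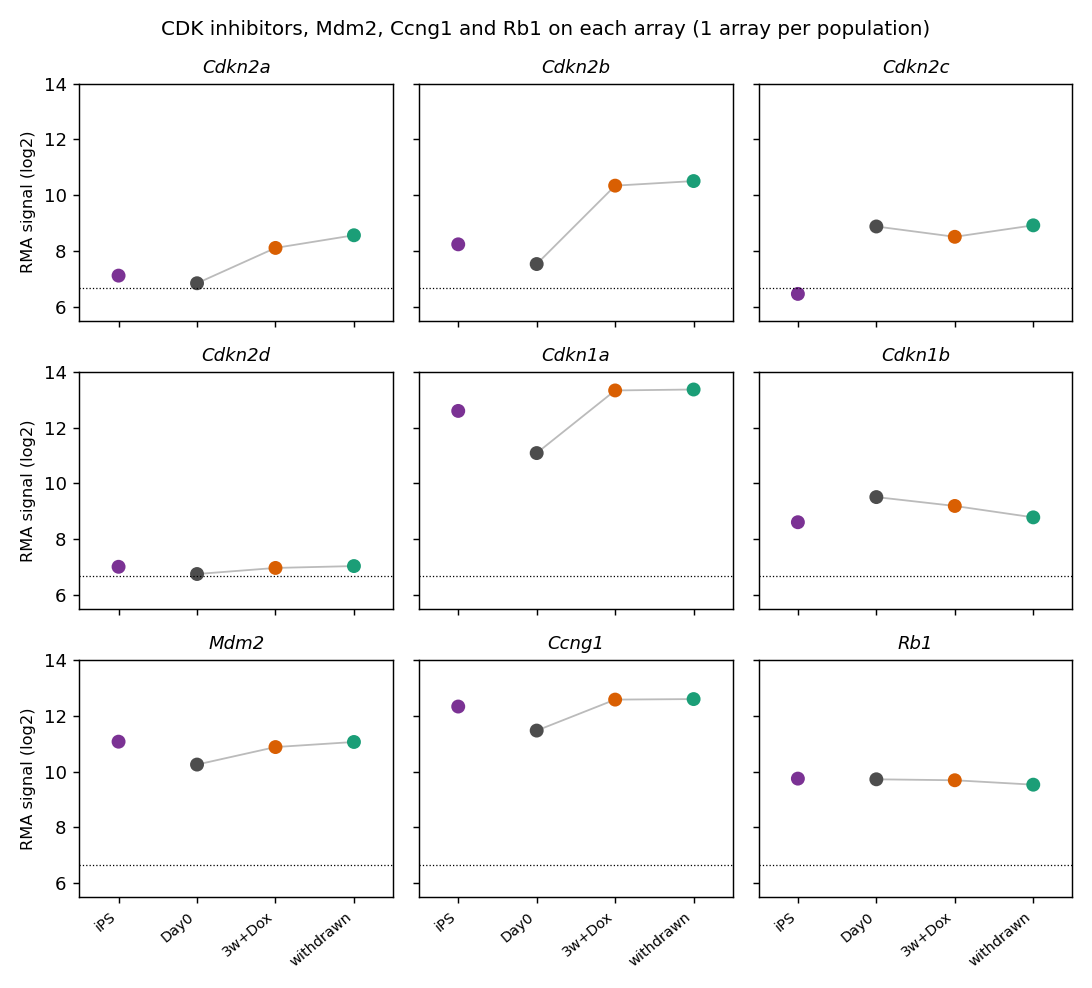
RMA signals (log2, vertical axis) of the 9 genes with a named probe set in iPS cells, Day0, 3w+Dox and withdrawn cells, 1 point per array. Grey lines join the 3 stages of the club cell culture and the dotted line is the median of all values, 6.67. Cdkn2b, Cdkn1a, Cdkn2a and Ccng1 are lowest at Day0, Cdkn2c is lowest in iPS cells, and Rb1 and Cdkn2d are nearly flat.

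The comparison of withdrawn with 3w+Dox cells asks whether these genes moved once the drug was removed. Of the 9 genes, 0 passed the 2-fold rule in either direction, where 3.34% of all named genes did. The differences ran between -0.41, for Cdkn1b, and 0.45, for Cdkn2a, with a median of 0.07 beside 0.03 over all named genes. Cdkn1a and Ccng1 differed by 0.03 and 0.02. In the deposited values the withdrawn array was at least as high as the 3w+Dox array for every gene that had been higher at 3w+Dox.

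In these values the share of the difference from Day0 that was undone after withdrawal was therefore below 0 for each of the 4 genes. It was -1.51% for Cdkn1a, -1.68% for Ccng1, -5.86% for Cdkn2b and -35.9% for Cdkn2a, where a negative share means that the signal moved further from Day0. Over the 2010 genes that passed 2-fold upward at 3w+Dox, the median share undone was 2.16%, with quartiles at -10.7% and 22.6%. Cdkn2a lay below the lower quartile and the other 3 genes lay inside the quartiles. After a second quantile normalization the share was 0.32% for Cdkn1a and 0.15% for Ccng1, so the sign for these genes depended on the processing.

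Set against Day0, withdrawn cells gave the same 4 genes of 9 past 2-fold upward, beside 7.85% of named genes. Cdkn2b was 7.86-fold and Cdkn1a 4.85-fold higher, 2 of 9 at 4-fold beside 4.05% of named genes, and Cdkn2a was 3.29-fold and Ccng1 2.19-fold higher. Mdm2 was 1.75-fold higher and Cdkn1b 1.66-fold lower. This comparison shares the Day0 array with that of 3w+Dox and the withdrawn array with that of withdrawal. Fibroblast markers were higher than at Day0 by a median of 5.84 and leukocyte markers by 3.77, and their part was not tested here either.

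**Figure D3:**
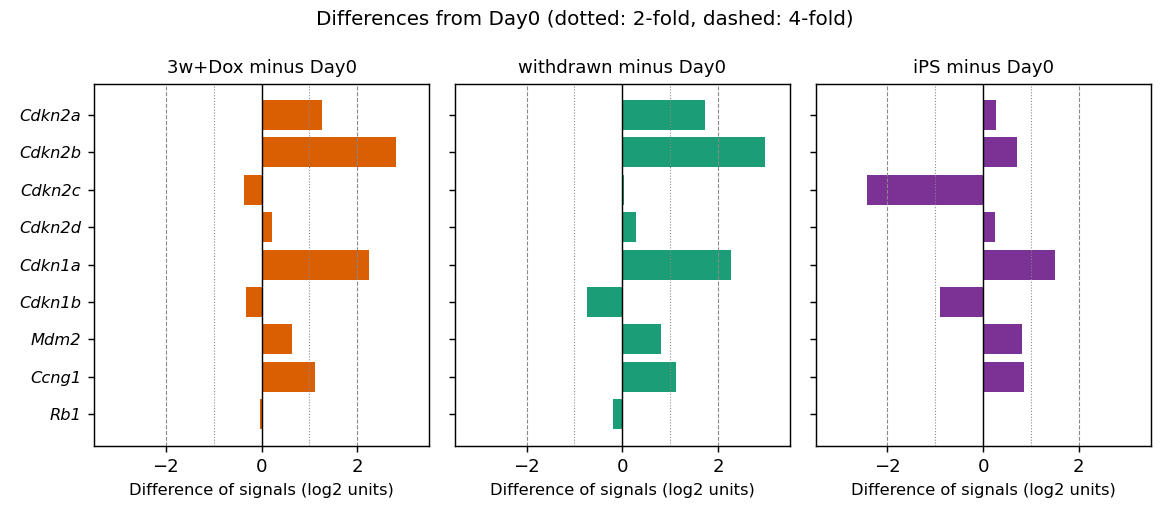
Difference of signals from Day0 (log2 units, horizontal axis) for the 9 genes, with 1 panel each for 3w+Dox, withdrawn and iPS cells. Dotted lines mark 2-fold and dashed lines 4-fold. Cdkn2b and Cdkn1a pass 4-fold in both cultures, and Cdkn2c alone passes 4-fold in iPS cells, downward.

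The comparison of iPS cells with the other populations asks which of these genes differed once cells were pluripotent. Against Day0, Cdkn2c was 5.34-fold lower in iPS cells and Cdkn1a was 2.85-fold higher, and the other 7 genes were within 2-fold. At 4-fold the count was 1 of 9, beside 10.8% of all named genes, and at 2-fold 2 of 9, beside 25.5%. Cdkn2a and Cdkn2b were higher than Day0 by 0.27 and 0.71. Ccng1 and Mdm2 were higher by 0.86 and 0.82, and Cdkn1b was lower, at -0.90. Fibroblast markers were higher in iPS cells than at Day0 by a median of 3.14 and leukocyte markers by 0.40. Their part in these differences was not tested.

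Against 3w+Dox, Cdkn2b was 4.29-fold and Cdkn2c 4.13-fold lower in iPS cells, 2 of 9 genes past 4-fold downward, beside 5.16% of named genes. The Cdkn2c call was lost when arrays were centred on the median of their brighter genes or when the brighter signal had to reach 8.82, the 75th percentile. Cdkn2a was 1.99-fold and Cdkn1a 1.66-fold lower. Against withdrawn cells, Cdkn2c was 5.49-fold, Cdkn2b 4.81-fold and Cdkn2a 2.73-fold lower, 3 of 9 past 2-fold downward beside 12.5% of named genes. At 4-fold that count was 2 of 9, beside 5.05%. Cdkn1a in iPS cells was 1.70-fold below withdrawn cells while it lay above Day0, so its order over the arrays was withdrawn, 3w+Dox, iPS and Day0, with the first pair 0.03 apart. On the same arrays fibroblast markers in iPS cells were lower than at 3w+Dox by a median of -2.92, and leukocyte markers by -3.14.

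Cdkn2a and Cdkn2b are neighbours on the mouse genome, so the next coding genes in RefSeq order were read as well. Mtap, a methylthioadenosine phosphorylase next to Cdkn2a, read 11.23 in iPS cells, and 9.51 at Day0, 10.89 at 3w+Dox and 10.92 in withdrawn cells. Mtap was thus brightest in iPS cells, where Cdkn2a and Cdkn2b were close to Day0. Ifne, an interferon gene on the far side of Mtap, lay between 4.46 and 5.03, and Dmrta1, the gene after Cdkn2b, between 4.54 and 5.08. Both stayed below the median of all values on every array.

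Genes that follow p53 were read from a list of 37 p53 target genes other than the members, of which 34 were measured. At 3w+Dox 8 of the 34 passed 2-fold upward from Day0 and 2 downward, beside 8.67% and 7.52% of all named genes, and the median of the list was 0.34 beside -0.09. Eda2r, a receptor of the TNF receptor family, differed by 3.43, Phlda3, an inhibitor of Akt, by 2.47, Apaf1, the scaffold of the apoptosome, by 2.07, and Tnfrsf10b, a death receptor, by 1.90. The 2 genes that passed downward were Ddb2 and Btg2, which were chosen after their values were seen. Fibroblast and leukocyte markers were higher than at Day0 by medians of 6.04 and 3.30 at 3w+Dox. Their part in the differences of the p53 target genes was not tested. After withdrawal 0 of the 34 passed 2-fold against 3w+Dox, beside 3.34% of named genes. The furthest apart were Dram1, an autophagy regulator, at 0.84, and Perp, a desmosomal protein, at -0.72.

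In iPS cells 16 of the 34 p53 target genes passed 2-fold upward from Day0 and 6 downward, beside 13.1% and 12.4% of all named genes, with a median of 0.75 beside 0.00 over all named genes. Gtse1, which is also a cell cycle gene of the spindle, was higher by 4.62 and Eda2r by 4.32. Dram1 (-4.44) and Cd82, a tetraspanin (-3.24), were lower. The list therefore held genes far apart in both directions.

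Of 22 measured regulators of p53, 0 passed 2-fold upward from Day0 and 3 downward at 3w+Dox, where 8.67% and 7.52% of named genes did. Trp73, a relative of p53 that is needed for ciliated cells, differed by -1.79, Ppp1r13b, which encodes ASPP1, by -1.54, and Sirt1, a deacetylase, by -1.02. Ciliated cell markers were lower by a median of -4.40 on the same array, and their part in the Trp73 difference was not tested. In iPS cells 8 of 22 passed 2-fold upward from Day0 and 1 downward, beside 13.1% and 12.4% of named genes. Chek1 and Chek2, the checkpoint kinases, were higher by 3.74 and 2.72, and Npm1, the nucleolar protein nucleophosmin, by 1.97, while Ppp1r13b was 4.16-fold lower, at -2.06. After withdrawal 1 of 22 passed 2-fold against 3w+Dox, beside 3.34% of named genes, and this was Npm1, at -1.03. Npm1 read 6.52 in withdrawn cells, below the median of all values, against 7.56 at 3w+Dox.

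The E2F factors and the partners of Rb1 were mixed at 3w+Dox. Of 12 genes, 3 passed 2-fold upward from Day0 and 2 downward, where the shares over all named genes were 8.67% and 7.52%. E2f1, an activator, differed by 1.61, E2f3 by 1.39 and E2f8, a repressor of the family, by 1.36, while E2f2 differed by -1.49. In iPS cells 6 of 12 passed 2-fold upward and 1 downward, beside 13.1% and 12.4% of named genes, with E2f8 by 4.01, E2f1 by 3.20, Tfdp1, the dimer partner, by 2.23 and E2f3 by 2.19. Rb1 itself was 0.02 above Day0 in iPS cells.

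Cyclins and CDKs are the targets of the inhibitors. Of 19 cyclin, CDK and CDK-regulator genes, 5 passed 2-fold upward from Day0 and 2 downward at 3w+Dox, beside 8.67% and 7.52% of named genes. Ccnd2, cyclin D2, which binds CDK4 and CDK6, was higher by 2.18, and Ccne1, cyclin E1, by 1.86. Ccna1, cyclin A1, differed by -2.46, and Wee1, a kinase that holds back CDK1, by -1.57. In iPS cells 11 of 19 passed 2-fold upward and 2 downward, beside 13.1% and 12.4% of named genes, led by Ccne1 (4.90), Ccna2, cyclin A2 (4.15), Ccnb2, cyclin B2 (3.87), and Cdk1 (3.63).

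Of 23 proliferation genes, 6 passed 2-fold upward from Day0 at 3w+Dox and 0 downward, beside 8.67% and 7.52% of named genes, with a median of 0.67 beside -0.09. Rrm2, which makes deoxyribonucleotides, was higher by 2.08 and Tpx2, a spindle protein, by 1.44. In iPS cells all 23 passed 2-fold upward from Day0, beside 13.1% of named genes, with a median of 3.91 beside 0.00. Cdkn1a was thus 2.85-fold higher than at Day0 in the population where all 23 proliferation genes were higher. All 10 fibroblast markers also passed 2-fold upward there, with a median of 3.14, and their part in the Cdkn1a difference was not tested.

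Genes that act on the amount of p27 protein or belong to the wider inhibitor family numbered 13. At 3w+Dox, Cks1b, a cofactor of the SCF ubiquitin ligase that degrades p27, was higher than at Day0 by 1.07, and Cdkn1c, which encodes p57, differed by -1.23. The other 11 were within the 2-fold rule, so that 1 of 13 passed it upward and 1 downward, beside 8.67% and 7.52% of named genes. In iPS cells 4 of 13 passed 2-fold upward from Day0 and 1 downward, beside 13.1% and 12.4% of named genes. Among those higher were Cks1b by 3.19, Skp2, the substrate receptor for p27, by 3.19, and Cks2 by 2.07. Cdkn1b differed by -0.90 in the same comparison.

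Regulators of the Cdkn2a-Cdkn2b locus were read from a list of 30 genes, 29 of them measured. At 3w+Dox 4 passed 2-fold upward from Day0 and 1 downward, beside 8.67% and 7.52% of named genes. Id3, an inhibitor of basic helix-loop-helix factors, was higher by 3.32, Twist1, a mesenchymal transcription factor, by 2.11, and Tbx3, a T-box repressor, by 2.08. Cbx7, a Polycomb subunit that represses the locus, differed by -2.51. Cbx7 read 10.83 in iPS cells, and 10.76 at Day0, 8.24 at 3w+Dox and 8.35 in withdrawn cells. It was thus lower in both club cell cultures than at Day0. Other repressors of the locus on the list did not all share this order, and Bmi1, a Polycomb subunit chosen after its values were seen, read 3.66 in iPS cells, and 5.84 at Day0, 6.67 at 3w+Dox and 6.57 in withdrawn cells. Bmi1 stayed below the median of all values on every array, at 3w+Dox by less than the rounding.

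In iPS cells 10 of the 29 locus regulators passed 2-fold upward from Day0 and 2 downward, beside 13.1% and 12.4% of named genes. Tbx3 was higher by 4.48, Phc1, a Polycomb subunit, by 3.41, and Suz12 and Ezh2, subunits of the complex that methylates histone H3, by 2.31 and 2.28. At 3w+Dox, Suz12 read 9.26 and Ezh2 9.24, against 9.27 and 9.31 at Day0.

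Senescence and secreted factor genes were mostly higher in the doxycycline culture. Of 19 measured, 14 passed 2-fold and 12 passed 4-fold upward from Day0 at 3w+Dox, with a median of 2.56, and 0 passed 2-fold downward. Over all named genes these shares were 8.67%, 4.31% and 7.52%, and the median was -0.09. Mmp3, a stromelysin, was higher by 5.92, Igfbp3, which binds insulin-like growth factors, by 5.89, Fn1, fibronectin, by 5.55, and Ccl2, a monocyte chemokine, by 4.59. Fibroblasts make several of these proteins, and fibroblast markers were higher by 6.04 on that array, and their part was not tested. On the same list Lmnb1, Hmgb2 and Glb1 read 7.75, 5.87 and 10.22 at 3w+Dox, against 7.85, 6.49 and 9.77 at Day0, all within 2-fold. They and Hmga2, which read 10.03 against 7.48, were chosen after their values were seen. In iPS cells 11 of 19 passed 2-fold upward from Day0 and 1 downward, beside 13.1% and 12.4% of named genes. Among those higher were Mmp3 by 5.52, Fn1 by 5.26 and Ccl2 by 4.27. The one lower was Igfbp5, another binding protein of insulin-like growth factors, at -4.68. Fibroblast markers were higher by a median of 3.14 in the same comparison, and their part was not tested. Against 3w+Dox, 2 of 19 passed 2-fold upward in iPS cells and 11 downward, beside 11.4% and 12.4% of named genes.

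**Figure D4:**
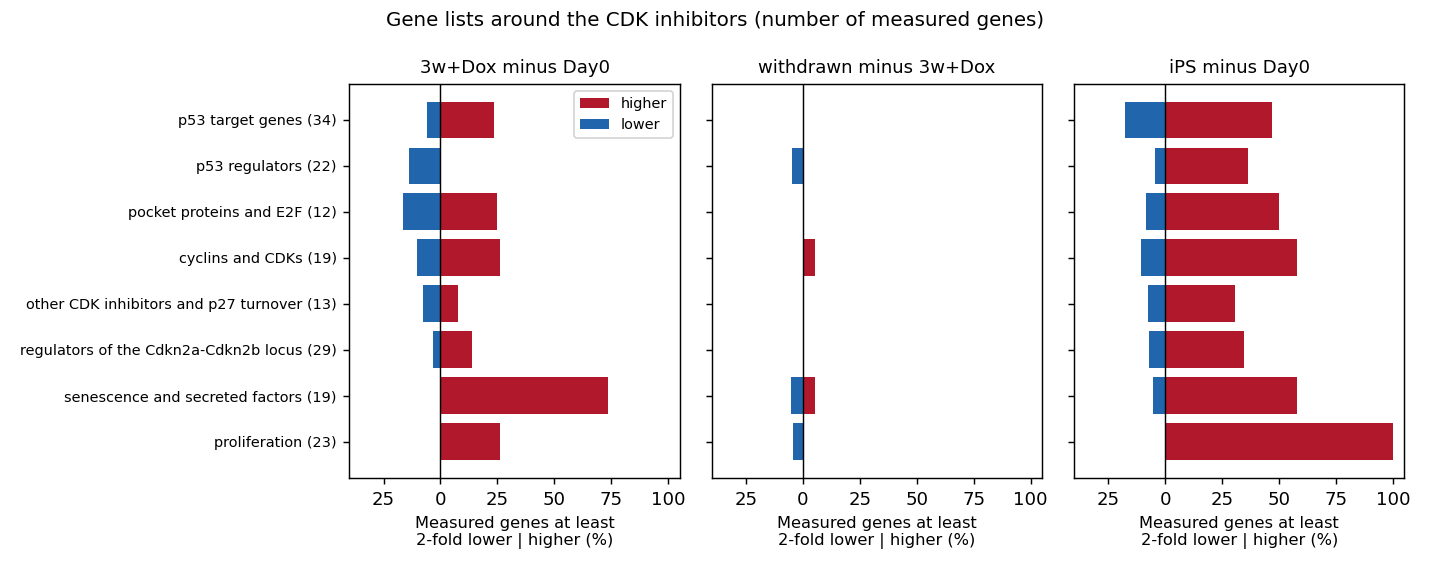
Percent of the measured genes of 8 lists that passed the 2-fold rule upward (right, red) or downward (left, blue) in 3w+Dox against Day0, withdrawn against 3w+Dox, and iPS against Day0 cells, 1 array per population. Few genes of the lists differ after withdrawal, where 3.34% of all named genes did in either direction. At 3w+Dox 14 of 19 senescence and secreted factor genes are higher, beside 8.67% of named genes. All 23 proliferation genes are higher in iPS cells, beside 13.1% of named genes.

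For the 3 members with a range of at least 2 log2 units, the genes with the most similar profile were found by the root mean square distance between signals centred on their own mean over the 4 arrays. The nearest to Cdkn2b were Shox2, a homeobox factor, at 0.05, C1qa, a complement chain made by macrophages, at 0.08, and Cdh13, a cadherin, at 0.08. The nearest to Cdkn1a were Sh3pxd2a, a podosome scaffold, at 0.03, Mkx, a tendon homeobox factor, at 0.06, and Lysmd2 at 0.07. The nearest to Cdkn2c were Rnase4, a secreted ribonuclease, Grb14, an adaptor of the insulin receptor, and Tinag, at 0.07 to 0.09. With 4 arrays such likeness is common, and 92 genes lay within 0.25 of Cdkn2b, 94 of Cdkn1a and 121 of Cdkn2c.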

How the data were processed

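Biotin-labelled RNA of 4 mouse cell populations was measured on Affymetrix arrays, after RNeasy extraction and Ambion WT preparation per the labels' protocols. The deposited values are log2 signals from RMA, which the authors ran with the affy package in R 3.0.2, per the submitters' processing notes. Their log2 scale follows from their range, 1.70 to 13.85. The genome build and probe set annotation are not stated in these sources. Groups came from sample titles.

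Probe sets carry Entrez gene IDs. Of 25206, the platform table gave 1 symbol for 23185, several for 0 and none for 2021, which were left out. All 23185 IDs were in RefSeq with 0 differing symbols, and each named gene had 1 probe set. Differences of log2 signals were computed over all named genes for 6 pairs of populations with Python 3.11.15 and pandas 2.3.3. The number of arrays limits the precision. The call rule was tested on simulated data. Gene members and lists were chosen with earlier results of these data known. Genes named are all members, per list up to 4 with the largest difference from Day0 at 3w+Dox and in iPS cells and up to 2 after withdrawal, and the 3 nearest profiles. Genes said to be chosen after their values were seen fall outside this rule. Alternatives were 2-fold and 8-fold thresholds, no filter or one at the 75th percentile (8.82), a second quantile normalization, centring on brighter genes and a floor at the 25th percentile (5.07).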

Additional observations from a re-analysis of the deposited data

How the results depend on the processing

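The differences of the 9 genes in 6 comparisons were recomputed after a second quantile normalization, after centring of the arrays and with a floor at the 25th percentile. All 162 recomputed values stayed on their side of the 2-fold rule with 0 reversed. The largest shift was 0.13 log2 units, and 5 differences under 2-fold changed sign. The 54 values under the floor could not change, because every signal of the 9 genes lay above it. The lowest of these signals was 6.46, for Cdkn2c in iPS cells. Only the second quantile normalization and the centring could therefore move a value. The share undone after withdrawal ran from -44.9% to 0.32% over the same settings, and rose above 0 for Cdkn1a and Ccng1 after the second quantile normalization. With the 2-fold threshold the number of genes apart was 4 at 3w+Dox and 4 in withdrawn cells against Day0, all upward. The shares of named genes higher there were 8.67% and 7.85%. In iPS cells against Day0 the number apart was 2, beside 25.5% of named genes. With the 8-fold threshold it was 0 in each of the 6 comparisons, but the share of all named genes at 8-fold was not computed. For iPS against 3w+Dox cells it was 1 with the filter at the 75th percentile and 1 after centring, since Cdkn2c dropped out. Centring put the median difference of all named genes at -0.12 for 3w+Dox against Day0 and 0.11 for iPS against 3w+Dox cells. No paired analysis was possible because each population has 1 array. Leaving out an array removes its population, so that was not run.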

Other observations

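Of the relatives of p53, Trp63, a factor of basal epithelial cells, read 7.21 in withdrawn cells, against 6.36 in 3w+Dox cells, which is within 2-fold. Trp73 read 5.98 at 3w+Dox, against 7.78 at Day0. Ccna1, cyclin A1, was 9.02-fold higher in withdrawn than in 3w+Dox cells, at 8.99 against 5.81, and was the one cyclin or CDK gene of 19 at least 2-fold apart in that comparison, where 3.34% of named genes were. Ciliated cell markers were higher by a median of 2.62 on the same arrays, and their part in the Ccna1 difference was not tested.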
